A study of Mus musculus with 46 samples.

Results

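The genes of the interleukin-1 (IL-1) family in AB1-HA tumors were Il1a, Il1b, Il1rn, Il1r1, Il1r2, Il1rap, Il18, Il18bp, Il33 and Il1rl1, taken by symbol from a table of RNA sequencing counts, where all 10 were found among 46011 complete entries. AB1-HA is a murine mesothelioma cell line that carries a viral haemagglutinin as a marker antigen. It was grown under the skin of male BALB/c mice of 8 to 10 weeks, each with a tumor on both sides. Cyclophosphamide (CY), an alkylating chemotherapy, was given at 200 mg/kg on day 10 after inoculation. A single tumor of each mouse was resected and sequenced, and the fate of the other tumor decided the label: complete responder (CR), or PR, which the study's paper calls progressor and the series' text partial responder.

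The groups were CR_Day-1 and PR_Day-1 (13 tumors each, resected on day 9, before CY), CR_Day+3 and PR_Day+3 (5 each, day 13, 3 days after CY), and CR_Day+7 and PR_Day+7 (5 each, day 17, 7 days after CY). Strain, sex, tumor line, surgery and CY were shared by all 46 mice, and each tumor came from a different mouse. Tumors resected on Day-1 had not been exposed to CY, and no untreated tumors of days 13 and 17 were among the samples, so that time after CY and tumor age cannot be told apart. All tumors derive from a single cell line, and the response label describes the tumor left in the mouse and not the one sequenced.

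IL-1 alpha (Il1a) and IL-1 beta (Il1b) are inflammatory cytokines that bind the receptor IL-1R1 (Il1r1), which signals only after it recruits the accessory chain IL-1RAP (Il1rap), and then acts through MyD88 and NF-kB. The pathway is held back by the receptor antagonist (Il1rn), which occupies IL-1R1 without signalling, and by the decoy receptor IL-1R2 (Il1r2), which binds IL-1 but lacks a signalling domain. IL-18 (Il18), like IL-1 beta, is made as an inactive precursor cut by caspase-1, drives interferon gamma production in T and natural killer cells, and is neutralised by the IL-18 binding protein (Il18bp). IL-33 (Il33) is kept in the nucleus of stromal and barrier cells, is released on damage, and signals through ST2 (Il1rl1) paired with IL-1RAP to mast cells, type 2 lymphoid cells and regulatory T cells.

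Il1a (chr2:129299610-129309972) and Il1b (chr2:129364570-129371139) lie near each other on the minus strand of chromosome 2 in GRCm38, and Il1rn (chr2:24336853-24351494) is on the plus strand of the same chromosome. The receptors Il1r2 (chr1:40074079-40125231), Il1r1 (chr1:40225080-40317257) and Il1rl1 (chr1:40429570-40465415) follow each other on the plus strand of chromosome 1. Il1rap (chr16:26581704-26730117), Il18 (chr9:50554827-50581840), Il18bp (chr7:102014885-102018690, minus strand) and Il33 (chr19:29925114-29960718) stand on chromosomes of their own. Positions are those of the whole gene in the GENCODE M21 annotation.

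The 250 bases before the annotated starts of Il1a and Il1b, the pair whose RNA moved most alike among the 10 genes, are printed from RefSeq's GRCm38.p6 sequence (10 of 10 genes matched, with 15 starts). Both are read 5′ to 3′ on the minus strand, Il1a at chr2:129309973-129310222 and Il1b at chr2:129371140-129371389, and capitals mark motif matches.
Il1a: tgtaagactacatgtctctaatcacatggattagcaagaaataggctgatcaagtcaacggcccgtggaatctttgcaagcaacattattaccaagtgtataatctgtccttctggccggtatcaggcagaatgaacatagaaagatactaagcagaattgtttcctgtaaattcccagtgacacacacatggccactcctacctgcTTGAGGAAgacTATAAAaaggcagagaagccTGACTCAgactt
Il1b: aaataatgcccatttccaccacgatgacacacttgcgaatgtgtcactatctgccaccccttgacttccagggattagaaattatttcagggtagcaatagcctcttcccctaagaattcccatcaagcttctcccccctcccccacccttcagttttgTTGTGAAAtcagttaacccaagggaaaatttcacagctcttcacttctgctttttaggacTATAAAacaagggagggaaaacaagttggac
Matches were searched on both strands for TATAAA, for the AP-1 motif TGANTCA, for the C/EBP motif TTGNGNAA, for the IRF motif (GAAA, then 2 bases of any kind, then GAAA), for the GAS motif TTCNNNGAA, and for the kappa B motif. TATAAA stood 32 to 27 bases before the start of Il1a and 31 to 26 bases before that of Il1b, and a C/EBP match stood 43 to 36 and 91 to 84 bases before them. Il1a alone of the pair held an AP-1 match, 12 to 6 bases before its start. Of 32851 promoters of the same length, 12.4% held TATAAA, 11.7% the C/EBP motif, 6.75% the AP-1 motif, 3.9% the kappa B motif, 2.98% the IRF motif and 7.02% the GAS motif. Among the other genes, TATAAA was found 29 to 24 bases before a start of Il33, and further upstream for Il18 and for another start of Il33. C/EBP matches also stood before starts of Il1rn and Il18bp, an AP-1 match before another start of Il1rn and a GAS match before a start of Il1r2. No kappa B match was found in the windows of Il1a and Il1b, and a kappa B match stood 232 to 223 bases before a start of Il1r1. A letter match is not a measured binding site.

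Counts were scaled to CPM, which gives each gene as a share of the TMM-adjusted library total. The table ends within the symbol Pax7, so totals cover part of each library: 10227681 to 14218987 counts per tumor on Day-1, 15412744 to 18748688 counts per tumor on Day+3 and 16047930 to 19446596 on Day+7. Genes whose symbols come later in the alphabet were not analysed here. Depth therefore also went with time. The keratinocyte gene Krt5 exceeded 10 CPM in 16 tumors (10 on Day-1, 1 on Day+3 and 5 on Day+7). Msln, a surface protein of mesothelial cells, measured 385 ± 76.0 CPM on Day-1 and 65.9 ± 22.2 on Day+7. Muc16, another mesothelial marker, had counts too low to be tested between days or responses. It was at 0 in all 10 tumors of Day+7 and in all PR tumors of the earlier days. One CR tumor of Day+7, CT7_6, stood apart: among the 10 tumors of that day it had the lowest sums of the macrophage, dendritic, T and natural killer cell marker lists and the highest of the fibroblast and mesothelial lists. Results of Day+7 that turn on CT7_6 are given with and without it.

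Per kilobase of the longest coding transcript Il1r1 had the highest level of the family before CY and Il1b on Day+7, whereas per kilobase of the shortest coding transcript Il1rl1 came first before CY and Il33 on Day+7. Levels between genes are given below as mean CPM per kilobase of the longest coding transcript of GENCODE M21, over CR and PR together. On Day-1 (n = 26) the highest was Il1r1 at 27.5 ± 1.97 CPM per kb (SD), followed by Il1rl1 at 24.2 ± 6.17, Il33 at 21.1 ± 8.23 and Il1b at 18.7 ± 8.05. Next came Il1rn at 11.8 ± 3.05, Il18bp at 10.9 ± 5.502, Il1rap at 8.94 ± 1.18, Il1r2 at 6.21 ± 2.21 and Il18 at 4.64 ± 1.38, with Il1a lowest at 0.375 ± 0.217 CPM per kb. Neighbours in this order down to Il1rap differed by less than the larger SD of the pair, as did Il1r2 and Il18, whereas the steps from Il1rap to Il1r2 and from Il18 to Il1a were larger.

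On Day+3 (n = 10) Il33 came first at 28.1 ± 3.38 CPM per kb, then Il1r1 at 24.9 ± 1.78, Il1b at 21.9 ± 6.39, Il1rl1 at 20.3 ± 1.77, Il1rn at 16.1 ± 3.42, Il18bp at 14.1 ± 3.23, Il18 at 10.6 ± 1.496, Il1r2 at 6.65 ± 1.46, Il1rap at 4.35 ± 0.679 and Il1a at 1.29 ± 0.641. Neighbours in this order from Il33 down to Il1rl1 differed by less than the larger SD of the pair, as did Il1rn and Il18bp.

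On Day+7 (n = 10) the order was Il1b at 157 ± 64.7 CPM per kb, Il18bp at 97.8 ± 22.1, Il33 at 77.8 ± 17.6, Il1rn at 57.1 ± 17.2, Il1r2 at 34.5 ± 11.2, Il1r1 at 32.6 ± 6.34, Il1rl1 at 26.2 ± 6.202, Il18 at 17.2 ± 4.39, Il1a at 10.4 ± 3.91 and Il1rap at 6.74 ± 1.39. Il1b and Il18bp, Il18bp and Il33, Il1r2 and Il1r1, and Il1a and Il1rap differed by less than the larger SD of the pair. Which transcript each gene used was not resolved in a table of counts per gene, and 8 of the 10 genes have coding transcripts of several lengths, so this order depends on the transcript taken. With the shortest coding transcripts Il1rl1 had 342 CPM per kb on Day-1, Il33 145 and Il1r1 33.1, and on Day+7 Il33 had 535 CPM per kb, Il18bp 509.96 and Il1b 157.

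**Figure D1:**
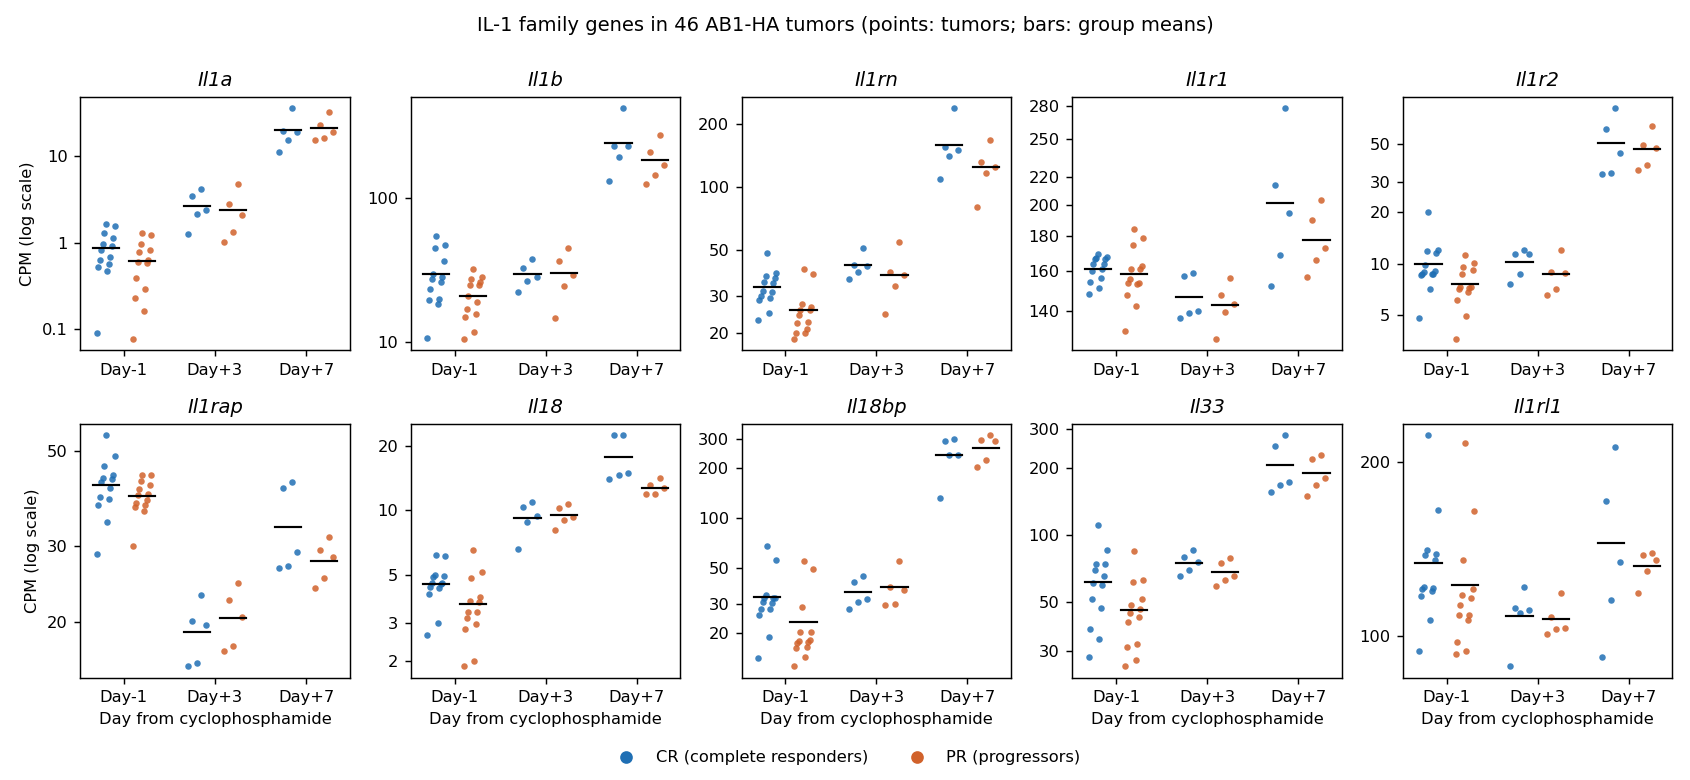
Level of each IL-1 family gene (CPM, log scale, 1 panel per gene) in 46 tumors by day from cyclophosphamide and response; each point is a tumor and each bar a group mean. In 7 panels the Day+7 points lie above all Day-1 points, and the share of all genes that separate so was not counted. Il1rap falls on Day+3, and CR and PR points overlap on every day.

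Time after CY separated the tumors by most of the family. Against Day-1, 8 of 10 genes rose by Day+7 and 1 fell (Il1rap), at a false discovery rate under 0.1 in edgeR's quasi-likelihood test. Of all 13194 genes tested 43% rose and 42.8% fell, so that a call by itself was common in this contrast. The median log2 fold change of the 10 genes was 2.08, and that of all genes tested -0.0064. For 7 genes all 10 tumors of Day+7 lay above all 26 of Day-1. How many of all genes tested separated in this way was not counted.

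By Day+3 the picture was mixed: 5 of 10 rose (Il1a, Il18, Il1rn, Il33 and Il18bp), 3 fell (Il1rap, Il1rl1 and Il1r1) and 2 did not pass (Il1b and Il1r2), where 37.9% of all genes tested rose and 39.6% fell. The median log2 fold change was 0.32, against -0.024 over all genes. From Day+3 to Day+7 all 10 rose, with a median of 1.64 against 0.022, where 38.8% of all genes rose and 36.5% fell. In whole tumors, fewer cells of a type and less RNA per cell cannot be told apart. The scaling mattered for small changes: with total counts in place of TMM the median of all genes moved to -0.17 for Day+7 against Day-1 and to -0.26 for Day+7 against Day+3, and the latter split became 3516 genes higher and 6906 lower in place of 5119 and 4821.

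**Figure D2:**
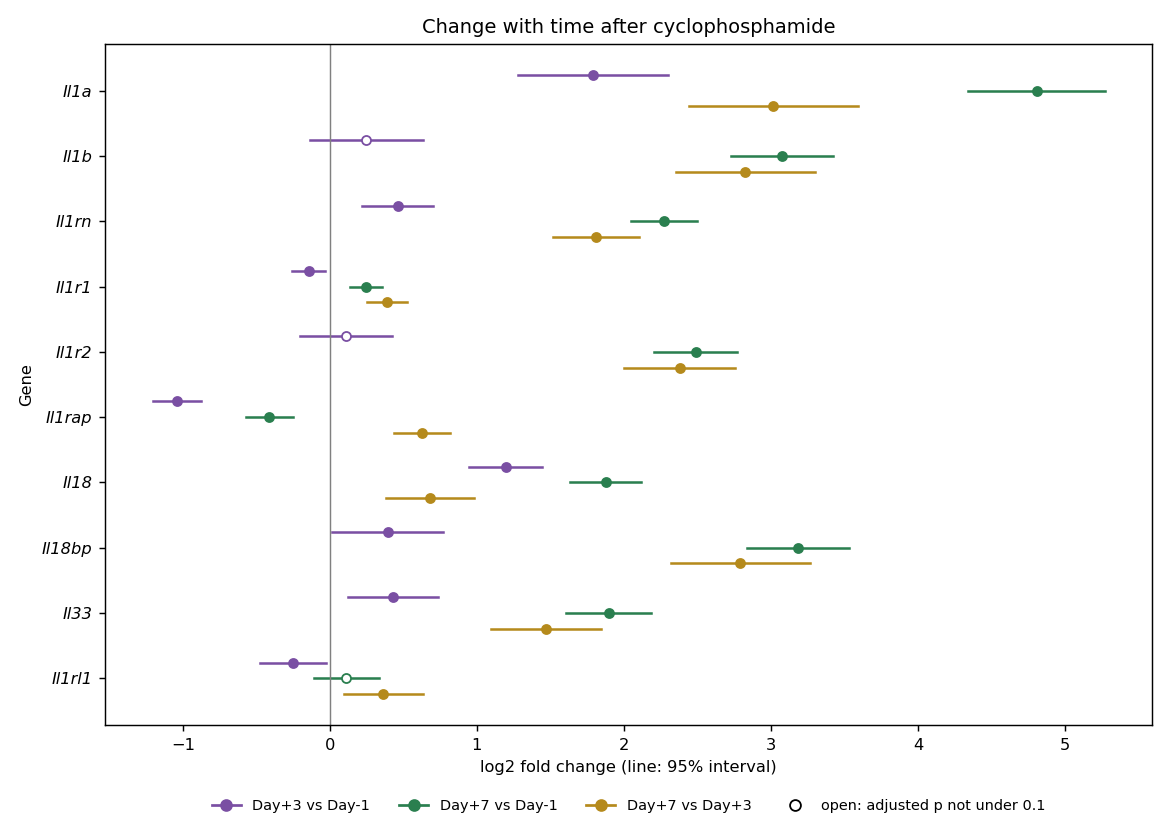
Log2 fold change of each IL-1 family gene between days (edgeR, 46 tumors in 1 model); points are estimates, lines 95% intervals, and open points did not pass an adjusted p under 0.1. Il1a has the largest change on Day+7 (4.81), Il1rap is the only gene below 0 in both comparisons with Day-1 that passed, and all 10 genes are above 0 from Day+3 to Day+7.

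Il1a was barely detected before CY and showed the largest rise of the family. On Day-1 it had 1 to 18 counts per tumor, from 0.0768 to 1.63 CPM (median 0.655). On Day+3 the CR tumors measured 1.25, 2.15, 2.39, 3.44 and 4.14 CPM and the PR tumors 1.01, 1.32, 2.098, 2.798 and 4.805 CPM. By Day+7 they reached 11.2, 15.2, 19.2, 19.6 and 35.9 CPM in CR and 15.5, 16.1, 18.9, 22.6 and 32.02 CPM in PR. Every tumor of Day+7 was above every tumor of the 2 earlier days. The log2 fold change was 1.79 (SE 0.254, edgeR, adjusted p = 2.87e-08) on Day+3 and 4.81 (SE 0.2301, edgeR, adjusted p = 1.98e-23) on Day+7, both against Day-1.

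Il1b, which encodes the secreted inflammatory form, stayed near its Day-1 level on Day+3 and rose afterwards. On Day-1 its level ran from 10.7 to 54.4 CPM (median 27.3) in CR and from 10.5 to 32.1 CPM (median 20.97) in PR. On Day+3 CR tumors held 22.4, 26.4, 28.1, 32.8 and 37.7 CPM and PR tumors 14.7, 24.5, 29.2, 36.3 and 45.1 CPM. These values lay inside the range of Day-1, and the log2 fold change of 0.25 (SE 0.189, edgeR, adjusted p = 0.235) did not pass; with total counts it was 0.37 and passed (adjusted p = 0.0757). On Day+7 CR tumors held 131, 194, 229, 230.02 and 422 CPM and PR tumors 125, 145, 169.7, 208 and 275 CPM. All 10 were above all 36 earlier tumors, with a log2 fold change of 3.08 (SE 0.173, edgeR, adjusted p = 7.42e-21) against Day-1.

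An antisense transcript, Il1bos, overlaps the first part of Il1b on the other strand (chr2:129369897-129375748). The use of strand in the counting is not stated in the sources used here, so reads of the overlap cannot be assigned with certainty. Il1bos had 2 to 25 counts in any tumor, against at least 106 for Il1b.

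Il1rn, the antagonist, rose at both times. It ran from 22.9 to 48.4 CPM (median 31.6) in CR and from 18.7 to 40.2 CPM (median 24.3) in PR before CY. On Day+3 it measured 36.04, 39.2, 41.8, 42.3 and 51.04 CPM in CR and 24.5, 33.4, 37.7, 39.2 and 54.4 CPM in PR, and on Day+7 109, 140.3, 149.8, 156 and 238 CPM in CR and 80.1, 116, 124, 131 and 168 CPM in PR. The Day+3 tumors overlapped those of Day-1 and the Day+7 tumors did not. The log2 fold change against Day-1 was 0.46 (SE 0.119, edgeR, adjusted p = 0.000628) and then 2.27 (SE 0.111, edgeR, adjusted p = 4.32e-23).

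The signalling receptor and its decoy parted. Il1r1 stood at 159.97 ± 11.4 CPM on Day-1 (SD, n = 26), 145 ± 10.4 on Day+3 and 189.8 ± 36.9 on Day+7 (n = 10 each). Its fall by Day+3 was -0.15 (SE 0.0555, edgeR, adjusted p = 0.0178) and its rise by Day+7 0.24 (SE 0.0544, edgeR, adjusted p = 7.93e-05). Both calls were lost with total counts in place of TMM, at -0.026 and 0.082 (edgeR, adjusted p = 0.713 and 0.201). The Day+3 call was also lost without any single one of CT10 (CR, Day-1), CT7_7, CT7_9 or CT7_10 (PR, Day+7), with log2 fold changes from -0.10 to -0.094. CT7_6 had the highest Il1r1 of all 46 tumors, 278 CPM, and without it the Day+7 change was 0.18.

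The decoy Il1r2 ran from 4.81 to 20.1 CPM (median 8.88) in CR and from 3.62 to 11.2 CPM (median 7.33) in PR before CY. Its level on Day+3 was 7.57, 8.68, 11.3, 11.3 and 11.98 CPM in CR and 6.58, 7.103, 8.82, 8.92 and 11.97 CPM in PR, within the Day-1 range. On Day+7 it was 33.5, 33.97, 44.5, 61.9 and 81.6 CPM in CR and 35.3, 37.9, 47.8, 49.3 and 64.3 CPM in PR. Each Day+7 tumor exceeded each earlier one, with log2 fold changes against Day-1 of 0.11 (SE 0.155, edgeR, adjusted p = 0.534), which did not pass, and 2.49 (SE 0.141, edgeR, adjusted p = 9.20e-21).

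Il1rap, the chain that both IL-1R1 and ST2 need to signal, went the other way. It ran from 28.8 to 54.4 CPM (median 42.3) in CR and from 30.1 to 44.02 CPM (median 39.5) in PR on Day-1. On Day+3 it measured 15.7, 15.97, 19.6, 20.1 and 23.1 CPM in CR and 17.03, 17.6, 20.5, 22.4 and 24.6 CPM in PR. All 10 tumors of Day+3 were below all 26 of Day-1, and the log2 fold change was -1.04 (SE 0.0824, edgeR, adjusted p = 2.68e-15), about 0.486 of the earlier level. On Day+7 the values were 26.7, 26.9, 29.1, 40.9 and 42.3 CPM in CR and 23.9, 25.3, 28.4, 29.4 and 31.6 CPM in PR, in part back in the Day-1 range. The change from Day-1 was then -0.41 (SE 0.0793, edgeR, adjusted p = 7.59e-06), and that from Day+3 0.63 (SE 0.0944, edgeR, adjusted p = 1.13e-07).

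Il18 rose early, and its binding protein rose late. Il18 ran from 2.63 to 6.22 CPM (median 4.58) in CR and from 1.89 to 6.55 CPM (median 3.38) in PR before CY, and on Day+3 it measured 6.58, 8.84, 9.44, 10.4 and 10.9 CPM in CR and 8.09, 9.01, 9.25, 10.3 and 10.7 CPM in PR. The lowest Day+3 tumor, at 6.58 CPM, was just above the highest of Day-1, at 6.55 CPM. Levels on Day+7 were 13.95, 14.6, 14.97, 22.3 and 22.3 CPM in CR and 11.9, 11.9, 12.7, 13.1 and 14.1 CPM in PR. The log2 fold change from Day-1 was 1.19 (SE 0.122, edgeR, adjusted p = 5.77e-12) at the first step and 1.87 (SE 0.119, edgeR, adjusted p = 5.95e-19) by Day+7.

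Il18bp ran from 14.3 to 67.6 CPM (median 31.1) in CR and from 12.7 to 54.8 CPM (median 18.1) in PR. On Day+3 it was 28.2, 30.9, 32.5, 41.2 and 44.2 CPM in CR and 29.9, 30.02, 36.6, 38.3 and 55.1 CPM in PR, inside the Day-1 range. On Day+7 it stood at 132, 239.5, 242, 295 and 299.9 CPM in CR and 204, 225, 291, 296 and 317 CPM in PR, with CT7_6 lowest and still above every earlier tumor. The early change was 0.39 (SE 0.187, edgeR, adjusted p = 0.0548) and did not pass without CT3_8 (CR, 0.35, adjusted p = 0.108) or without CT3_9 (PR, 0.31, adjusted p = 0.151). By Day+7 the change was 3.18 (SE 0.172, edgeR, adjusted p = 1.83e-21), the second largest of the family.

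Il33 rose while its receptor ST2 changed little. Il33 ran from 28.2 to 111 CPM (median 60.8) in CR and from 25.6 to 84.9 CPM (median 44.3) in PR on Day-1. The tumors of Day+3 measured 65.1, 69.8, 75.2, 79.1 and 85.4 CPM in CR and 58.5, 62.4, 65.03, 75.1 and 78.7 CPM in PR. Those of Day+7 measured 157, 167, 174, 252 and 281 CPM in CR and 150.2, 168, 179.6, 221 and 229.6 CPM in PR, all above every earlier tumor. The log2 fold change from Day-1 was 0.43 (SE 0.152, edgeR, adjusted p = 0.0113) and then 1.90 (SE 0.144, edgeR, adjusted p = 3.01e-16).

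Il1rl1 averaged 128 ± 32.7 CPM on Day-1 (SD, n = 26), 108 ± 9.39 on Day+3 and 139 ± 32.9 on Day+7 (n = 10 each), and the days overlapped. The fall to Day+3 was -0.25 (SE 0.112, edgeR, adjusted p = 0.0414). That call was lost with total counts (-0.13), without the 16 tumors high in Krt5 (-0.074) and without CT10 (CR, Day-1) or CT3_7 (PR, Day+3), at -0.20 and -0.21. From Day-1 to Day+7 it was 0.11 (SE 0.1097, edgeR, adjusted p = 0.339) and did not pass. Total counts gave -0.049 for that step, and leaving out the tumors high in Krt5 gave 0.24, which passed (adjusted p = 0.0466). Counts per gene do not separate the soluble form of ST2 from the membrane form.

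Markers of several leukocytes moved over the same days. The summed level of 9 neutrophil genes ran from 16.1 to 87.8 CPM on Day-1, from 54.2 to 95.6 CPM on Day+3 and from 319 to 750.2 CPM on Day+7, and all 9 rose by Day+7. Ly6g, which defines murine neutrophils, was at or below 0.0958 CPM in every tumor of Day-1 and at 2.52 to 19.9 CPM on Day+7. For 11 macrophage and monocyte genes the sum ran from 2442 to 6007 CPM on Day-1. It ran from 7952 to 10104 CPM on Day+3 and from 11780 to 19145 CPM on Day+7. Of these genes, 8 were up and 2 down on Day+3, and all 11 were up on Day+7. Among all genes tested 37.9% rose and 39.6% fell by Day+3, and 43% rose and 42.8% fell by Day+7. The median sum of 7 dendritic cell genes was 93.0, 93.0 and 1272 CPM, and that of 5 natural killer cell genes 50.8, 64.5 and 730.4 CPM. The 7 fibroblast genes had a median sum of 23448 CPM on Day-1, 31169 on Day+3 and 14210 on Day+7. That sum does not speak for the whole list: by Day+7, 4 of the 7 rose and 3 fell, with a median log2 fold change of 0.27. Elane, a neutrophil granule protease, was near 0 in both groups of Day-1, at 0 in all CR tumors and at most 0.0731 CPM in PR tumors. The part of each cell type in the IL-1 family changes was not tested.

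Whether tumors of responders and progressors differed in these genes before CY was compared in 13 CR and 13 PR tumors. No gene of the family passed: edgeR called 0 of the 9 tested, 5 had an unadjusted p under 0.05, DESeq2 called 1 (Il1rn) and limma-voom 2 (Il1rn and Il18bp). Over all 10777 genes tested edgeR called 1 (0.00928%) and 1885 (17.5%) had an unadjusted p under 0.05. The estimates of all 9 were above 0, that is higher in CR; their median on the log2 scale was 0.37, against -0.0068 for all genes. Il1a did not pass the filter on low counts here. In a fit without a filter its log2 fold change was 0.48 (adjusted p = 0.597).

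Il1rn had the lowest p of the family, with 12 of 13 CR tumors above the PR median and a log2 fold change of 0.37 (SE 0.118, edgeR, adjusted p = 0.152). Its mean was 32.99 ± 6.598 CPM (SD) over 13 CR tumors, against 25.5 ± 6.69 over 13 PR tumors, and the groups overlapped. The PR tumors CT12 and CT25 had the highest Il1rn of their group, at 40.2 and 38.3 CPM, and they also held the highest PR values of Il18bp, at 54.8 and 48.8 CPM. Without CT12 the log2 fold change became 0.44 for Il1rn and 0.68 for Il18bp, and both passed (edgeR, adjusted p = 0.0488 and 0.0764), in a fit that called 874 genes in all. Il1rn also passed without CT25 (0.43, edgeR, adjusted p = 0.0804) and without the CR tumor CT8 (0.40, edgeR, adjusted p = 0.0852).

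Il1b averaged 29.7 ± 12.7 CPM (SD) over the 13 CR tumors and 20.995 ± 6.82 over the 13 PR tumors, a log2 fold change of 0.50 (SE 0.207, edgeR, adjusted p = 0.217), and the 4 highest tumors were CR. For Il18bp it was 0.51 (SE 0.234, edgeR, adjusted p = 0.2605), with levels of 33.3 ± 14.1 and 23.4 ± 13.2 CPM. Il33 stood at 61.3 ± 22.7 and 46.05 ± 16.5 CPM, with 0.41 (SE 0.193, edgeR, adjusted p = 0.267). The decoy Il1r2 stood at 9.99 ± 3.61 and 7.63 ± 2.11 CPM, with 0.39 (SE 0.169, edgeR, adjusted p = 0.232). The groups overlapped for each of these. Il18 had 0.32 (95% interval -0.014 to 0.64), Il1rl1 0.13 (-0.13 to 0.38), Il1rap 0.084 (-0.062 to 0.23) and Il1r1 0.023 (-0.062 to 0.11).

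Medians of leukocyte marker sums were also higher in CR before CY. The median sum of the neutrophil markers was 50.5 CPM in CR and 32.2 CPM in PR, that of the T cell markers 103 and 67.1 CPM, and that of the natural killer cell markers 66.3 and 39.2 CPM. Their ranges overlapped. Of the 9 neutrophil markers only 2, Csf3r and Cxcr2, passed the filter on low counts here, so that sum does not speak for the whole list. EdgeR called 0 of the marker genes tested, and all 8 T cell markers were higher in CR at an unadjusted p under 0.05. The part of these markers in the IL-1 family values was not tested.

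On Day+3 (5 CR, 5 PR) edgeR called 0 of the 10 genes, 0 had an unadjusted p under 0.05, and DESeq2 and limma-voom called 0 as well. Of all 11839 genes tested 0 were called (0%) and 256 had an unadjusted p under 0.05. Estimates ran from -0.11 for Il1rap to 0.23 for Il1r2, with 6 of 10 above 0. The narrowest 95% interval was that of Il1r1 (-0.10 to 0.18) and the widest that of Il1a (-0.75 to 1.04), so that differences of that size in Il1a could not be detected with 5 tumors a group.

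On Day+7 (5 CR, 5 PR) edgeR called 0 of the 10 genes, and DESeq2 and limma-voom called 0. One, Il18, had an unadjusted p under 0.05, at 0.0113 in edgeR's quasi-likelihood test. Over all 11727 genes 0 were called (0%) and 333 had an unadjusted p under 0.05. Il18 averaged 17.6 ± 4.28 CPM (SD) over 5 CR tumors, against 12.7 ± 0.921 over 5 PR tumors, a log2 fold change of 0.47 (SE 0.155, edgeR, adjusted p = 0.967). The 5 CR tumors lay above the PR median, and the lowest CR value, 13.95 CPM, was just under the highest PR value, 14.1 CPM. CT7_4 and CT7_6 carried the 2 highest values, at 22.3 CPM each. Without CT7_6 the log2 fold change was 0.36. Il1b and Il1rn were 0.39 (-0.25 to 1.02) and 0.36 (-0.11 to 0.82), with CT7_4 highest of all tumors for both, at 421.5 and 238 CPM, and without CT7_4 they were 0.10 and 0.18. CT7_6 also moved others: Il1r1 was 0.19 and without CT7_6 0.034, Il33 0.13 and without CT7_6 -0.018, Il1rl1 0.14 and without CT7_6 -0.052, and Il18bp -0.14 and without CT7_6 0.011. The neutrophil marker sums of that day were 402, 435, 680.3, 703 and 750 CPM in CR, and the median, 680.3 CPM, is the value of CT7_6. In PR they were 319, 412, 446, 453 and 585 CPM, with a median of 446 CPM. The part of these sums was not tested.

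**Figure D3:**
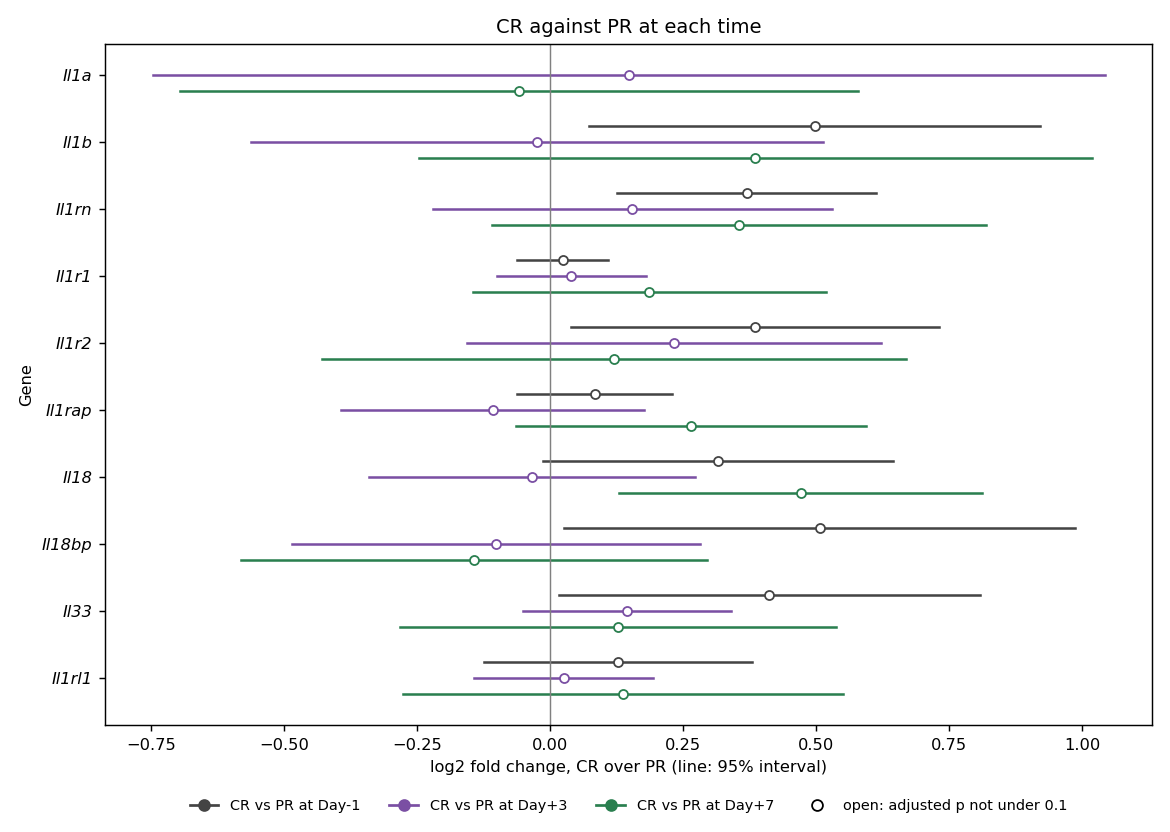
Log2 fold change of CR over PR for each IL-1 family gene on each day (edgeR); points are estimates and lines 95% intervals, and all points are open since none passed an adjusted p under 0.1. Estimates before cyclophosphamide (26 tumors, 9 genes tested) all lie above 0, while 6 of 10 do on Day+3 and 8 of 10 on Day+7 (10 tumors each).

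Whether the CR to PR difference changed after CY was tested as an interaction over all 46 tumors. EdgeR called 0 of the 10 genes for Day+3 against Day-1, where 0 of 13194 genes passed (0%), and 0 for Day+7 against Day-1, where 1 passed (0.00758%). At an unadjusted p under 0.05 the counts in the family were 0 and 0, and DESeq2 and limma-voom called 0 in both. Il18bp had the lowest estimates, -0.61 (SE 0.3797, edgeR, adjusted p = 0.99998) and -0.65 (SE 0.3699, edgeR, adjusted p = 0.491).

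Ratios within a tumor set an agonist over its inhibitor (Il1b to Il1rn, Il18 to Il18bp) and the decoy over the signalling receptor (Il1r2 to Il1r1), with 0.5 added to each count. Il1b to Il1rn averaged 0.821 on Day-1 (linear scale), 0.729 on Day+3 and 1.47 on Day+7, with tumors from 0.398 to 1.598, from 0.6005 to 0.926 and from 0.936 to 1.79. Il1b counts exceeded Il1rn counts in 7 of 26 tumors of Day-1, 0 of 10 of Day+3 and 9 of 10 of Day+7. Il18 to Il18bp went from 0.155 to 0.258 and then down to 0.0601. On Day+7 CT7_6 was highest at 0.170. Il1r2 to Il1r1 was 0.0525, 0.0641 and 0.251. Differences of these ratios between days were not tested, and the counts are not per length, so that a ratio of 1 is not an equal number of transcripts.

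CR and PR were compared for each ratio on each day in 9 two-sided tests, by exact permutation after CY and by 100000 permutations before it. The lowest adjusted p was 0.301. Il18 to Il18bp on Day+7 was 0.61 higher in CR on the log2 scale (exact permutation test, p = 0.0476, adjusted p = 0.301, n = 5 each, smallest possible p = 0.00794), and 0.32 without CT7_6. Il1r2 to Il1r1 on Day-1 was 0.34 higher in CR (permutation test, p = 0.0668, adjusted p = 0.301, n = 13 each). On Day+7 the CR minus PR difference of that ratio was -0.088, and 0.16 without CT7_6. Il1b to Il1rn differed between CR and PR by 0.070 on Day-1, -0.14 on Day+3 and -0.0091 on Day+7, each less than the SD among tumors of a group.

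**Figure D4:**
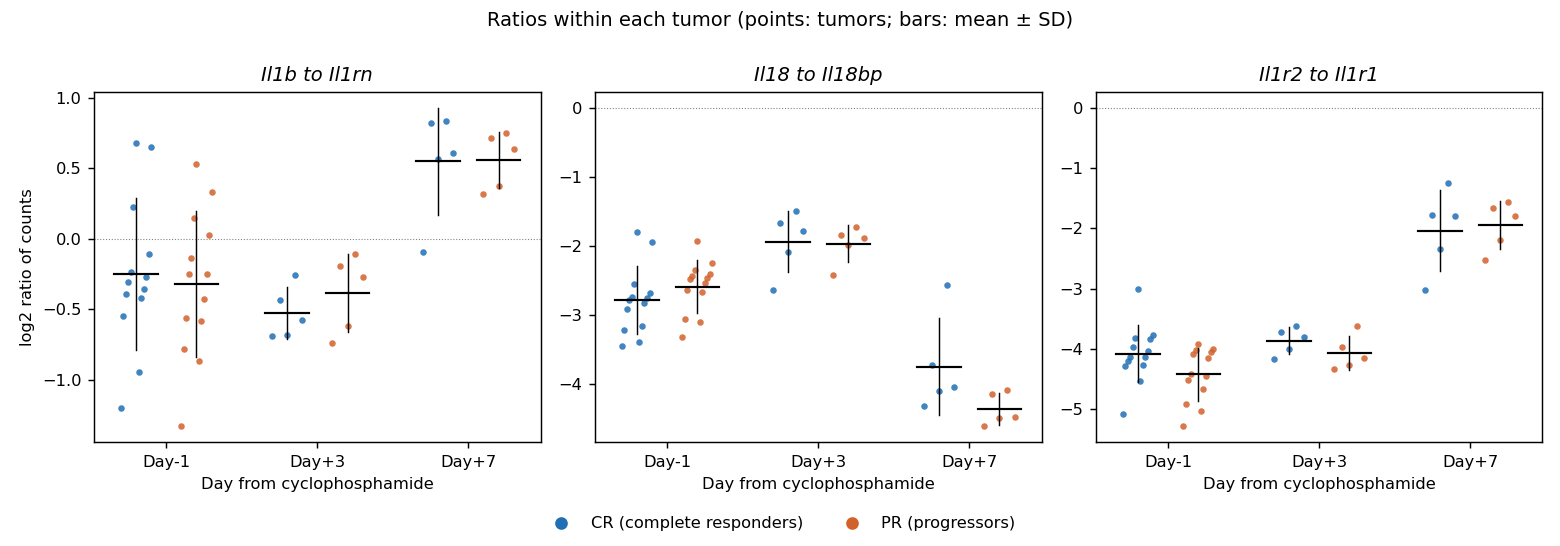
Log2 ratio of counts within each tumor for 3 pairs of IL-1 family genes by day and response; points are tumors and bars mean ± SD. Il1b to Il1rn is above 0 in 9 of 10 tumors of Day+7, Il18 to Il18bp falls on Day+7 with CT7_6 as the highest CR point, and CR and PR overlap in all panels.

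A list of 14 symbols held 10 further IL-1 family genes. Its entries Il36rn, Il36a, Il36b and Il36g are newer names of Il1f5, Il1f6, Il1f8 and Il1f9. All 10 genes were in the table, and 6 could be tested over time. By Day+7, 4 rose and 0 fell, and on Day+3 1 rose and 3 fell; for this list and those that follow, the 3 genes of smallest p are named. Beside the counts of every list stand the shares of all genes tested, 37.9% higher and 39.6% lower on Day+3 and 43% higher and 42.8% lower on Day+7. Il1f9, the cytokine IL-36 gamma, went from 2.51 ± 1.03 CPM (SD, n = 26) to 4.41 ± 1.77 and 24.1 ± 13.02 CPM (n = 10 each), with log2 fold changes from Day-1 of 0.82 and 3.22. The chains of the IL-18 receptor fell and then rose. Il18r1 measured 20.6, 11.3 and 62.03 CPM, with log2 fold changes of -0.83 and 1.62, and Il18rap had -0.26 and 0.87. Il1rapl2, an accessory-like protein known from neurons, fell by Day+3 (-1.44), but at very low levels, from a mean of 0.460 CPM to 0.165 CPM.

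Genes that process and release IL-1 and IL-18 were split on Day+3, with 7 of 18 higher and 8 lower, near the shares of all genes (37.9% and 39.6%), and on Day+7 13 were higher and 3 lower. Gsdmd, the pore through which IL-1 beta leaves the cell, rose from 110.5 to 193 and 406 CPM, and Casp4, an inflammatory caspase that responds to lipopolysaccharide, from 45.4 to 92.8 and 248 CPM. Gzmb, a granule protease of killer lymphocytes, had a log2 fold change of 4.41 on Day+7. The 3 that were lower on Day+7, named after their values were seen, were Nlrp3 (-0.71), an inflammasome sensor, its partner Nek7 (-0.18) and the pore protein Gsdme (-0.46). Casp1, which cuts both precursors and was also picked after the values were seen, had 0.76 on Day+3 and 1.65 on Day+7, and both passed.

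Of 22 signalling genes below the receptors, 6 rose and 10 fell by Day+3 (37.9% and 39.6% of all genes), and 13 rose and 7 fell by Day+7 (43% and 42.8% of all genes), when the median log2 fold change was 0.47. The adaptor Myd88 had 0.43 on Day+3 and 1.86 on Day+7, and Ikbkb, a kinase that frees NF-kB, -0.12 and 0.95. Mapk8, which encodes the kinase JNK1, fell on both days, with -0.46 and -0.98. Mapk9 and Nfkb1 fell by Day+3, with -0.39 and -0.49.

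Genes known to be induced by IL-1 rose in 14 of 18 cases by Day+3 and fell in 3, with a median log2 fold change of 0.76, and by Day+7 14 were higher and 2 lower, with a median of 3.69. The monocyte chemokine Ccl7 went from 32.1 to 108 and 458 CPM and the neutrophil chemokine Cxcl3 from 1.24 to 4.93 and 38.3 CPM. Icam1, an adhesion molecule for leukocytes, had a log2 fold change of 3.25 on Day+7, and Mmp3, a matrix protease, 1.41 on Day+3. The 2 that were lower on Day+7, named after their values were seen, were Mmp9 (-1.57), another matrix protease, and Lif (-0.41), a cytokine of the IL-6 family. These genes also answer to other signals.

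Of 9 genes tested from the response to IL-33, 6 rose and 1 fell by Day+3, and 7 rose and 2 fell by Day+7. The chemokine Ccl17 went from 2.39 to 18.9 and 687 CPM, Ccl24 from 1.92 to 4.73 and 179 CPM, and the type 2 cytokine Il13 from 0.221 to 0.418 and 19.6 CPM. Areg, a ligand of the epidermal growth factor receptor, rose by Day+3 (0.91) and was below its Day-1 level on Day+7 (-2.58), and Gata3, a transcription factor of type 2 lymphocytes, was lower on both days (-0.78 and -0.49).

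All 11 genes of the response to IL-18 and IL-12 rose by Day+7, with a median of 3.03, while on Day+3 1 was higher and 3 were lower. Ifng, which encodes interferon gamma, had a log2 fold change of 5.26 on Day+7, Gzmb, also in the list of processing genes, 4.41, and the IL-12 receptor chain Il12rb1 3.03. On Day+3 the lower genes included Il2ra (-1.19), the alpha chain of the IL-2 receptor, and Il12rb2 (-1.34). Gzmb, also among the 3 of smallest p on that day, went from a mean of 19.9 CPM on Day-1 to 25.9 CPM on Day+3. List medians stand beside -0.024 on Day+3 and -0.0064 on Day+7 for all genes tested.

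**Figure D5:**
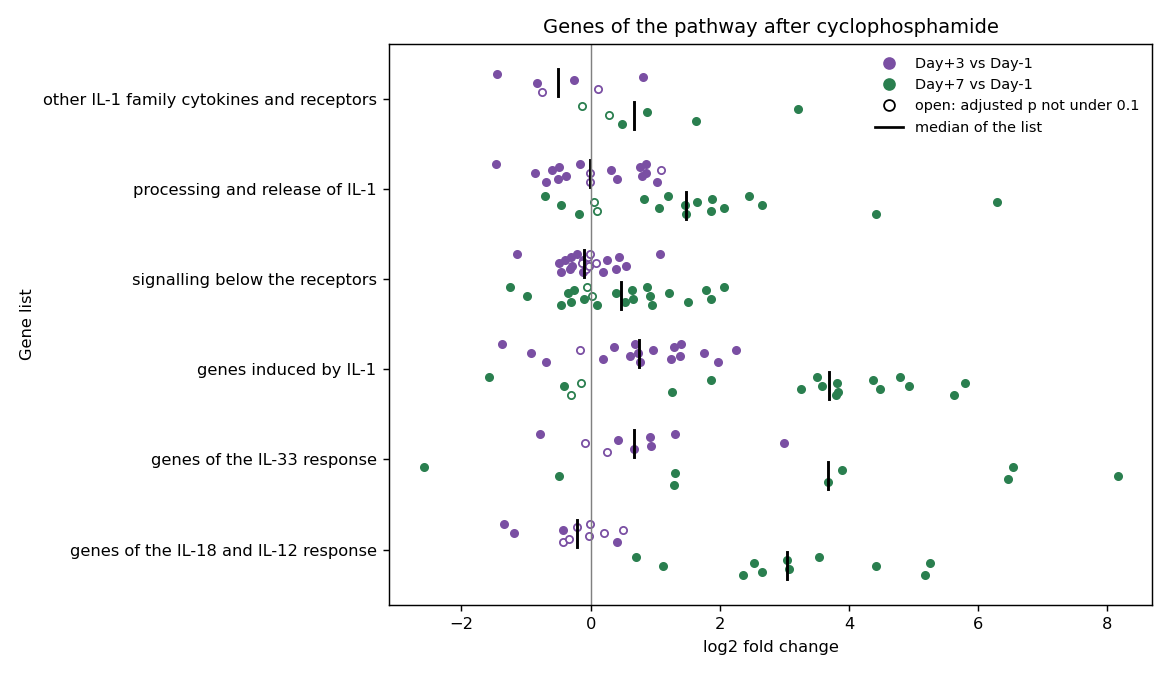
Log2 fold change of single genes in 6 lists around the IL-1 family on Day+3 and Day+7 against Day-1 (edgeR, 46 tumors); each point is a gene, filled where it passed an adjusted p under 0.1, and black bars are list medians. Most genes induced by IL-1 lie above 0 on both days, and the 11 genes of the IL-18 and IL-12 response all lie above 0 on Day+7, against points on both sides of 0 on Day+3.

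In the comparison of CR with PR before CY, edgeR called 0 genes of these lists, as on Day+3 and Day+7. At an unadjusted p under 0.05 (17.5% of all genes tested, both directions), 6 of 14 genes tested of the IL-1 induced list were higher in CR and 0 lower. In the IL-18 and IL-12 list 5 of 10 were higher and 0 lower. Median log2 fold changes were 0.35 and 0.57, against -0.0068 for all genes. The other lists had 6 higher and 1 lower of 15 (processing and release), 3 and 1 of 22 (signalling), 1 and 1 of 6 (IL-33 response) and 1 and 0 of 4 (further family genes). On Day+3 the medians of the IL-1 induced list and of the IL-18 and IL-12 list were 0.012 and -0.058. At an unadjusted p under 0.05, 0 genes were higher and 2 lower in the first of these lists and 0 in the second. On Day+7 the medians were 0.31 and -0.053, with 1 gene and 0 genes higher and 0 lower.

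Within groups, pairs of the 10 genes went together to unlike degrees. After the mean of each of the 6 groups was taken out, the log2 CPM of Il1a and Il1b went together most (Pearson r = 0.79, Spearman rho = 0.78, n = 46 tumors), followed by Il1rn and Il18bp (r = 0.71, rho = 0.66) and by Il18 and Il33 (r = 0.71, rho = 0.56). Il1r1 and Il1r2 went with each other hardly at all (r = 0.072, rho = 0.14), nor did Il1r1 and Il18bp (r = -0.015). The latter was the only pair with a Pearson r below 0. Tumors share library depth and cell make-up across genes, so these values describe the 46 libraries.

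The genes most like each member over the 46 tumors, by the same measure among all 13194 genes, differed between members. Il1a and Il1b were each other's nearest, with Csrnp1 next for Il1b (r = 0.76). Il1rn was nearest to Clec5a (r = 0.86), a receptor of myeloid cells, and to the chemokine Ccl2 (r = 0.85). Il1r2 was nearest to Csf3r (r = 0.82), the G-CSF receptor of neutrophils, and to Csf2rb2 (r = 0.81). Il18bp was nearest to Fgl2 (r = 0.95), AW112010 (r = 0.94) and Cd274 (r = 0.93), the last encoding the checkpoint ligand PD-L1, and Il18 to Il13ra1 (r = 0.77). Il33 was nearest to Medag (r = 0.87) and Cyp7b1 (r = 0.84), Il1rl1 to the interferon-inducible genes Ifi204 (r = 0.84) and Ifi202b (r = 0.83), Il1r1 to Ccl12 (r = 0.74), and Il1rap to Pafah1b1 (r = 0.75).

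Marker sums, centred in the same way, gave Pearson r of 0.78 for Il1r2, 0.78 for Il33, 0.72 for Il18bp and 0.46 for Il1b with the neutrophil sum (n = 46). With the natural killer cell sum Il18bp had 0.89 and with the regulatory T cell sum 0.81. Il1rl1 had 0.66 with the mast cell sum and 0.67 with the neutrophil sum. Il1rap stayed between -0.15 and 0.38 with all 13 sums, Il1b between -0.21 and 0.46, and Il1r1 between -0.18 and 0.48.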

How the data were processed

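RNA from 46 AB1-HA tumors was sequenced as single-end reads. The deposited values are counts per gene symbol, which the authors made with kallisto against GRCm38.p6 (submitters' processing notes; the kallisto version is not given in the sources used here). They are whole numbers and were not normalized; how transcripts were summed to symbols is not given in the sources used here. The table ends within the entry Pax7, which was left out with all later symbols, and 13 symbols had been turned into dates. No pair of tumors held identical values.

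Groups were taken from the labels. Counts were scaled with TMM, genes were filtered with filterByExpr, and edgeR 4.0.16 (quasi-likelihood test, R 4.3.3) was fitted over all genes, with Benjamini-Hochberg adjustment over all genes tested and a threshold of 0.1. CR and PR were compared within each day, and days and interactions in 1 model of 6 groups. SE is the log2 fold change divided by the square root of F, and 95% intervals use the t distribution with edgeR's total degrees of freedom. Log2 CPM used a prior count of 2. DESeq2 1.42.0 and limma-voom 3.58.1, other scalings, filters and thresholds, tumors below 10 CPM of Krt5 and leaving out each tumor were alternatives. Ratios used counts plus 0.5 and permutation tests, exact for 5 against 5. The fit was tested on simulated data with known changes.

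The 10 genes are all named. Of each list of other genes the 3 of smallest p in the comparison described are named, and others are said to be chosen after their values were seen. For each of the 10, the genes with the highest Pearson r are given. The members and lists were chosen with earlier results of these data known. Each tumor came from a separate mouse, so p-values measure the spread between mice.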

Additional observations from a re-analysis of the deposited data

How the results depend on the processing

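Changes over time held under most settings. Of 270 values of genes that passed over time, taken over the alternatives of test, scaling, filter, threshold and samples, 260 kept their direction and stayed past the threshold and 10 lost the call, and 1234 of 1242 did so when single tumors were left out. Those that lost it were the small changes of Il1r1, Il1rl1 and Il18bp against Day-1, and on Day+7 against Day+3 Il1r1 and Il1rl1 with total counts in place of TMM. Il1rl1 on Day+7 against Day-1 turned to -0.049 with total counts. No paired analysis was possible because CR and PR tumors and the tumors of different days came from different mice, and equal replicate numbers in the labels only number the tumors.

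The comparison of CR with PR before CY depended on the test: DESeq2 called 443 genes and 1 of the family, limma-voom 1188 and 2, a model of all 46 tumors 8 genes, a covariate for title numbers above 14 150, and the tumors below the Krt5 limit 0. Leaving out single tumors gave 1 to 874 genes and 0 to 2 of the family, the highest without the PR tumor CT12. DESeq2 called 3 genes on Day+3 and 5 on Day+7, limma-voom 1 on Day+7, and leaving out single tumors 0 to 1 and 0 to 1. For the change of the difference by Day+3, DESeq2 called 3 and single tumors left out gave 0 to 10. By Day+7 DESeq2 called 40, single tumors left out gave 0 to 94 (the most without the CR tumor CT7_8), and limma-voom, a threshold of 0.05, the Krt5 limit and a fit of only those days each gave 0. The cause was not tested.

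Estimates of CR against PR that did not pass changed sign in places. With the Krt5 limit these were Il1r1 on Day-1 (-0.010), Il1b and Il18 on Day+3 (0.062 and 0.022), Il18bp on Day+7 (0.11), and, for the change by Day+7, Il1r2 (0.23) and Il1rl1 (-0.16). With limma-voom Il1rl1 was -0.047 on Day+7 and -0.18 for the change by Day+7, where Il18 was -0.0022, and with total counts Il1rn was 0.0014 there. Leaving out single tumors on Day+3 gave Il1a -0.059 to 0.56, Il1b -0.20 to 0.17, Il1r1 -0.0032 to 0.075, Il18 -0.10 to 0.065, Il18bp -0.19 to 0.073 and Il1rl1 -0.017 to 0.094. On Day+7 it gave Il1a -0.35 to 0.14, Il1r2 -0.11 to 0.26, Il18bp -0.23 to 0.011, Il33 -0.018 to 0.22 and Il1rl1 -0.052 to 0.26. For the change by Day+3 it gave Il1a -0.55 to 0.074 and Il1r1 -0.029 to 0.039, and by Day+7 Il1b -0.40 to 0.082, Il1rn -0.20 to 0.12 and Il1rl1 -0.17 to 0.14.

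For the ratios, the Krt5 limit gave CR minus PR differences (log2) of -0.092 for Il1b to Il1rn on Day-1 and 0.49 for Il1r2 to Il1r1 on Day+7. Without single tumors Il1b to Il1rn ran from -0.014 to 0.15 on Day-1 and from -0.082 to 0.15 on Day+7, Il18 to Il18bp from -0.079 to 0.21 on Day+3, and Il1r2 to Il1r1 from -0.28 to 0.16 on Day+7. Depth limits Il1a before CY, with at most 18 counts per tumor, and 5 tumors a group limit the comparisons of CR with PR after CY.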
